A study of Mus musculus with 6 samples.

Results

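The 10 genes described here are markers commonly read for resident immune cells in pancreatic islets, the small hormone-producing organs within the pancreas. They are C1qa, C1qb, C1qc, Csf1r, Adgre1, Lyz2, Ctss, Cd68, Lyve1 and Cd79a, and they were taken by gene symbol from the 54532 genes of the deposited expression table. The choice was made with the difference between the genotypes already known, so for these 10 genes that difference is a description. No p-value is given for any of them. Their calls in the fit over all genes are listed once beside the background, and nothing is read from them. Of the 10 symbols, 8 name genes that tissue macrophages are known to express strongly, Lyve1 is shared by lymphatic vessels and some macrophages, and Cd79a belongs to B cells.

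Poly(A)-selected RNA of whole islets was sequenced from mice aged 7 weeks. The bKO group (3 libraries, labelled Ythdc1-betaKO) is by its label a beta-cell knockout of Ythdc1, and the control group (3 libraries, labelled Ythdc1flox/flox) carries the floxed gene. Ythdc1 encodes a nuclear reader of N6-methyladenosine in RNA. The promoter that drives the deletion, the sex of the mice and any pooling of animals are not stated by any source used here, and the replicates are labelled as independent biological samples. Recovered totals ran from 16863329 to 18240339 reads per library. Ythdc1 was listed at 3.81, 3.79 and 3.87 FPKM (a fragment count divided by gene length, on the authors' library scaling) in the bKO libraries, against 5.76, 6.46 and 6.18 FPKM in the control libraries, and it fell by 0.56 on the log2(FPKM + 1) scale (limma adjusted p = 0.0014). The description fields of bKO replicates 2 and 3 carry the names of different YTH genes, but the genotype field of each reads Ythdc1-betaKO and the Ythdc1 level of each was below all control levels.

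Islets are known to hold a small population of resident macrophages that sit beside blood vessels, take up beta-cell granule material and present it on MHC class II. Macrophages depend on the receptor CSF1R, which binds CSF1 and IL-34, and they are a main source of C1q, the recognition unit of the classical complement pathway, which works together with the proteases C1r and C1s. Cathepsin S, the product of Ctss, cuts the invariant chain CD74 so that MHC class II can load peptides.

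Promoters of C1qb, Ctss and Cd68 are shown because C1qb and Ctss were lower in bKO while Cd68, another macrophage gene, was not. The sequences are RefSeq's on GRCm38.p6, the 250 bases before the RefSeq start, written 5′ to 3′ on the strand of the gene. They lie at chr4:136886201-136886450 (minus strand), chr3:95526536-95526785 (plus strand) and chr11:69666171-69666420 (minus strand). Capitals mark GAGGAA, the core of the site that the macrophage factor PU.1 is known to bind, searched on both strands, on which it reads TTCCTC.
C1qb: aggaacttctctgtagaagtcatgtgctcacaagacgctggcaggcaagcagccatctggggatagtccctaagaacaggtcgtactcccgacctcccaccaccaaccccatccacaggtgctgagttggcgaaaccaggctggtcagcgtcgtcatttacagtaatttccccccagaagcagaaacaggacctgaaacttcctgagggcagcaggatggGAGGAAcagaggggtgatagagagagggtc
Ctss: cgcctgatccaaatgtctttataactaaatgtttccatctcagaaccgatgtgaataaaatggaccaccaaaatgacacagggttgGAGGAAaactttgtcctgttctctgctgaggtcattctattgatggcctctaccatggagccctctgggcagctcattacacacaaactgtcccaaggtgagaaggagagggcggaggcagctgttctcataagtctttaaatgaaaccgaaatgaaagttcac
Cd68: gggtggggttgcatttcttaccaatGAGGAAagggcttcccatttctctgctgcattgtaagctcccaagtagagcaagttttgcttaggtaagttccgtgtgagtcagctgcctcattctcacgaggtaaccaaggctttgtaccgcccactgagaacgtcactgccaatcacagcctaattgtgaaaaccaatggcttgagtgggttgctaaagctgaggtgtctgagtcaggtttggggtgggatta
The match begins 30 bases before the start in C1qb, 164 in Ctss and 225 in Cd68. Of the 6 members with a promoter in the table, 5 held the core at least 1 time (C1qb, C1qc, Ctss, Cd68 and Cd79a, but not Lyz2), and of all 32851 promoter windows of the same 250 bases 23.3% held it. The core stood both in genes that were lower in bKO and in Cd68, which was not. C1qa, Csf1r, Adgre1 and Lyve1 are named only.

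In bKO islets 9 of the 10 genes had a lower mean than in control, and for each of those 9 every bKO library lay below every control library. The exception was Cd68, whose groups overlapped. Lyve1 and Cd79a stood at 0.220 and 0.218 of their control means, and the other 7 lower genes at 0.530 to 0.730. All 10 genes had at least 0.5 FPKM in each of the 6 libraries, so all 10 passed the filter on low values. For scale, non-overlap with bKO lower held for 21.6% of the 15717 genes tested, and 11.4% of them were called lower at a limma adjusted p under 0.05 (20.3% in either direction), beside 6 of the 10 members called lower (C1qa, C1qb, C1qc, Ctss, Lyve1 and Cd79a) and 0 called higher. At an unadjusted p under 0.05, 9 members were lower and 0 higher, for which no share over all genes is given here. With voom 9 members were lower and 0 higher, beside 2394 lower and 1964 higher of the 15717 genes tested. Nothing is read from these counts, since the members were picked on the same contrast. The median difference on the log2(FPKM + 1) scale was -0.53 over the 10 members and -0.01 over all genes tested. In whole islets, fewer cells of a type and less RNA per cell cannot be told apart.

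**Figure D1:**
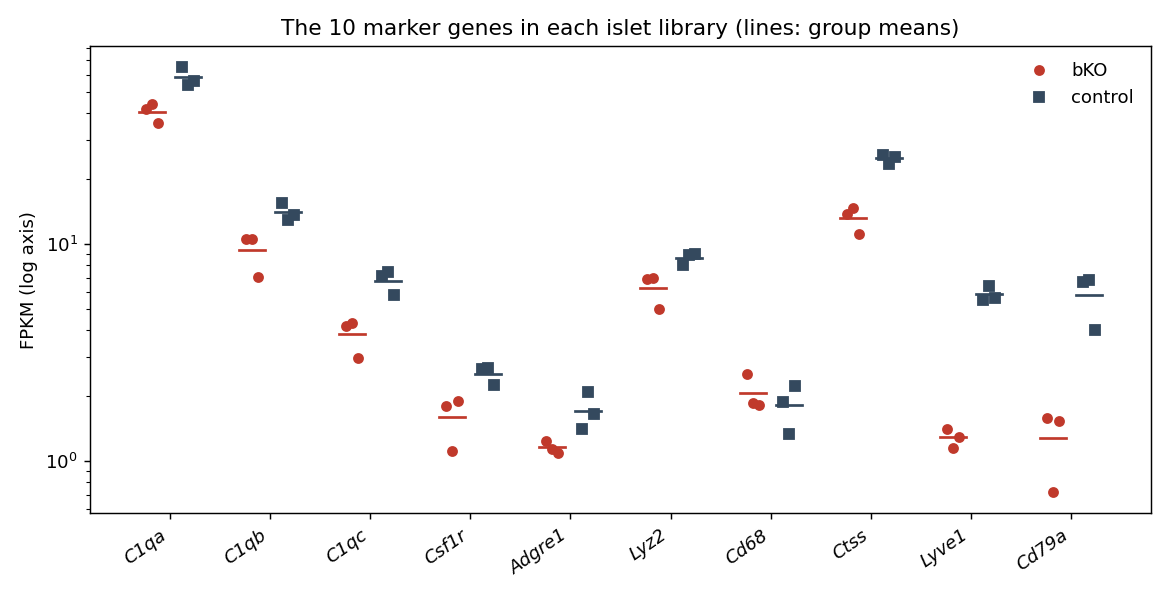
FPKM (log axis) of the 10 genes in each library, with bKO as circles to the left, control as squares to the right, and a line at each group mean (n = 3 per group). The bKO points lie below the control points in 9 of the 10 genes, with the widest gaps in Lyve1 and Cd79a, while those of Cd68 overlap.

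The 3 chains of C1q are encoded side by side within 18675 bases of chromosome 4 (136880129 to 136898803, GRCm38, minus strand). C1qa (ENSMUSG00000036887, 136895917 to 136898803) was listed at 41.6, 44.1 and 36.2 FPKM in bKO, against 65.1, 54.2 and 56.6 FPKM in control. It was the most abundant of the 10 genes in both groups and averaged 40.6 ± 4.1 FPKM in bKO and 58.6 ± 5.8 FPKM in control (SD, n = 3 each). The highest bKO library was still well below the lowest control library.

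C1qb (ENSMUSG00000036905, 136880129 to 136886187) had 10.5, 10.5 and 7.06 FPKM in the bKO libraries and 15.5, 12.9 and 13.6 FPKM in the control libraries. For C1qc (ENSMUSG00000036896, 136889804 to 136893065) the values were 4.18, 4.31 and 3.00 FPKM in bKO, against 7.11, 7.39 and 5.85 FPKM in control. In all 3 chain genes bKO replicate 3 was the lowest library. The ratio of bKO to control reads, scaled for depth, was 0.694 for C1qa (95% exact binomial interval 0.658 to 0.733), 0.669 for C1qb (0.599 to 0.747) and 0.564 for C1qc (0.497 to 0.639), intervals that cover counting error only. Per length, C1qa made up 73.9% to 78.3% of the summed FPKM of the 3 genes in bKO and 72.7% to 74.4% in control. C1qc made up 6.48% to 7.43% in bKO and 7.69% to 9.93% in control, and C1qa had the highest level of the 3 in every library.

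The other complement genes included some that were called higher and 0 called lower by limma. Of 14 listed genes 10 were tested, and 4 rose while 0 fell by limma, with 0 lower and 4 higher at an unadjusted p under 0.05. With voom on recovered reads 5 rose and 1 fell. C5ar1, a complement receptor of myeloid cells, had 23 reads in bKO and 41 in control with no overlap, and was untested, and Cd59a, which blocks the membrane attack complex, averaged 6.40 ± 0.70 FPKM in bKO and 8.82 ± 2.4 FPKM in control (limma adjusted p = 0.17). The share called higher over all genes was 8.96%, and the median of the tested list was 0.31. Serping1, the inhibitor of C1r and C1s, averaged 33.0 ± 0.36 FPKM in bKO and 24.5 ± 2.0 FPKM in control (log2 difference 0.42, limma adjusted p = 0.0049). C1s1, the protease that acts with C1q, averaged 3.21 ± 0.39 FPKM in bKO and 2.36 ± 0.18 FPKM in control (0.32, limma adjusted p = 0.046), and its partner C1ra 0.947 ± 0.13 FPKM in bKO and 0.745 ± 0.086 FPKM in control (limma adjusted p = 0.33). C2 and C4b rose by 0.42 and 0.47. The calls of C1s1, C2 and C4b ended when single libraries were left out. That of C1s1 was lost without bKO replicate 2 or 3 or any control library (limma adjusted p = 0.081 to 0.128), that of C2 without any 1 of the 6 (0.057 to 0.130), and that of C4b without any bKO library or control replicate 1 or 2 (0.099 to 0.134).

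Csf1r (ENSMUSG00000024621, chromosome 18, 61105572 to 61132149, plus strand), the receptor that macrophages need to survive, was listed at 1.79, 1.12 and 1.88 FPKM in bKO, against 2.66, 2.68 and 2.25 FPKM in control. Its bKO values lay below all control values, and bKO replicate 2 was the lowest. The ratio of scaled reads was 0.633 (95% exact binomial interval 0.558 to 0.716). In GENCODE vM21, 873 bases of its exons overlap those of Hmgxb3 on the opposite strand, and the strand setting of the counting was not given, so reads of the 2 genes may not be fully separated.

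Of the ligands of that receptor, Csf1 was lower in bKO and Il34 was not called. Csf1, the main macrophage growth factor, had 1.52, 1.62 and 1.52 FPKM in bKO, against 3.65, 3.70 and 3.61 FPKM in control. It fell by 0.87 on the log2(FPKM + 1) scale (SE 0.063, limma adjusted p = 0.00044), the groups stood far apart beside their spread, and the call held in all 14 other settings. Il34 averaged 0.967 ± 0.15 FPKM in bKO and 0.907 ± 0.068 FPKM in control (log2 difference 0.04, SE 0.10, limma adjusted p = 0.80), with a sign that turned under quantile normalization (-0.058). Csf1 is not a member and its test was adjusted over all genes, but it was listed with earlier results of these data known.

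**Figure D2:**
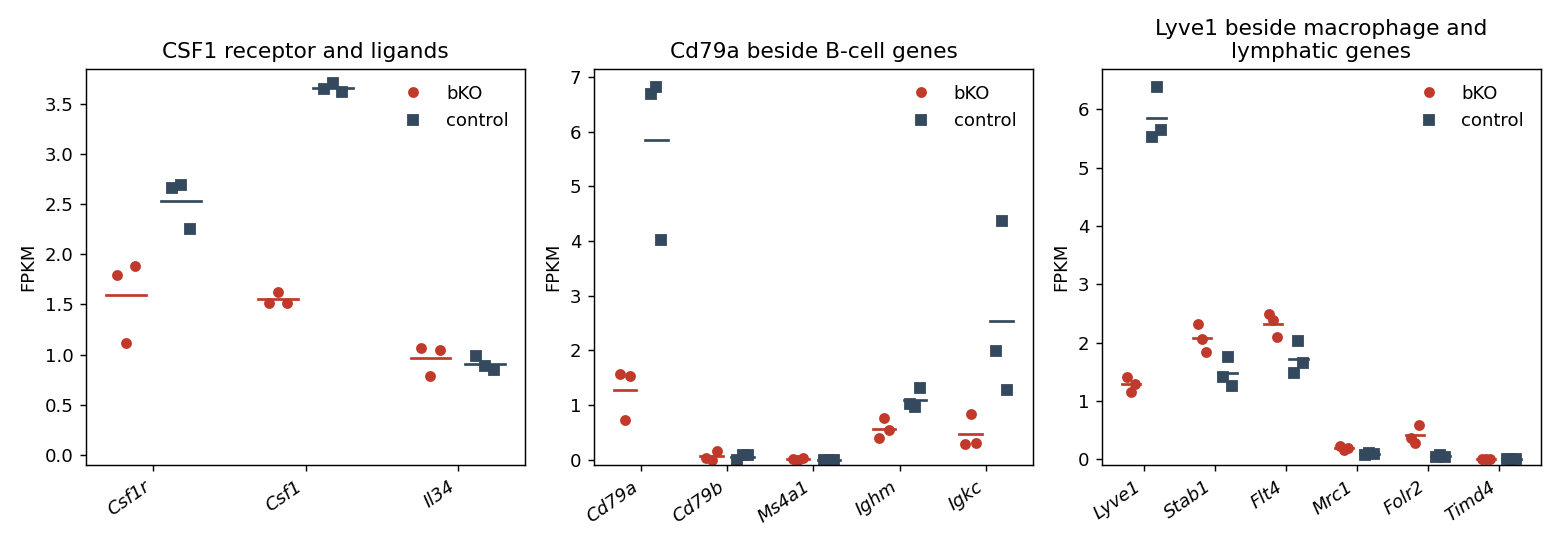
FPKM per library for Csf1r and its ligands (left), Cd79a beside other B-cell genes (middle) and Lyve1 beside macrophage and lymphatic genes (right), with bKO as circles, control as squares and lines at the group means (n = 3 each). Csf1 averages 1.55 FPKM in bKO and 3.65 FPKM in control, while Cd79b and Ms4a1 lie at or near 0 in both groups.

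Adgre1, the gene of an adhesion receptor used to stain mouse macrophages (ENSMUSG00000004730, chromosome 17, 57358691 to 57483527), was among the lowest of the 10 genes in both groups. Its values were 1.24, 1.14 and 1.09 FPKM in bKO, against 1.40, 2.08 and 1.64 FPKM in control, and the gap between the nearest libraries was small. With 209 reads in the bKO libraries together and 275 in the control libraries, the ratio of scaled reads was 0.674 (95% exact binomial interval 0.561 to 0.810). Adgre5, a related receptor of leukocytes and other cells, averaged 3.51 ± 0.63 FPKM in bKO and 2.39 ± 0.16 FPKM in control (log2 difference 0.40, limma adjusted p = 0.041), and its call was lost without any 1 of the 6 libraries (limma adjusted p = 0.051 to 0.099).

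Lyz2, the lysozyme of macrophages and neutrophils (ENSMUSG00000069516, chromosome 10, 117277331 to 117282321), had 6.92, 6.96 and 5.01 FPKM in bKO, against 7.98, 8.91 and 9.004 FPKM in control. At 0.730 of the control mean, its difference was the smallest among the 9 lower genes as a ratio. Its close paralog Lyz1 had 0 reads in every library, which allows up to 0.135 FPKM per library by a limit of 3 reads, so the counting assigned no reads to that copy.

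Cd68 (ENSMUSG00000018774, chromosome 11, 69664213 to 69666153), a glycoprotein of macrophage lysosomes, was the only one of the 10 with a higher mean in bKO. It was listed at 2.53, 1.84 and 1.81 FPKM in bKO and at 1.88, 1.34 and 2.21 FPKM in control, and the groups overlapped. On 145 reads in bKO and 112 in control the ratio of scaled reads was 1.15 (95% exact binomial interval 0.892 to 1.48). Among its lysosomal relatives, Lamp1 averaged 184 ± 5.5 FPKM in bKO and 188 ± 5.3 FPKM in control (log2 difference -0.03, limma adjusted p = 0.63), a difference that turned positive when libraries were scaled by their totals (0.15) or quantile normalized (0.14). Lamp2 averaged 20.9 ± 0.26 FPKM in bKO and 24.4 ± 1.2 FPKM in control (log2 difference -0.21, limma adjusted p = 0.020). The call of Lamp2 was lost without any bKO library (limma adjusted p = 0.056 to 0.070), with total scaling (-0.04, limma adjusted p = 0.54), with quantile normalization (-0.14, 0.098) and with the replicate block (0.053).

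Ctss (ENSMUSG00000038642, chromosome 3, 95526786 to 95556403), the cathepsin of antigen-presenting cells, was listed at 13.7, 14.6 and 11.2 FPKM in bKO, against 25.7, 23.5 and 25.2 FPKM in control. After Lyve1 and Cd79a it had the lowest ratio, 0.531 in scaled reads (95% exact binomial interval 0.490 to 0.574), resting on 996 reads in bKO and 1666 in control. The control libraries lay close together and all were far above the bKO libraries.

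The substrate of cathepsin S and the MHC class II chains, which are not members, also fell. The share of all genes called lower was 11.4%. Of 8 listed class II genes 6 were tested, and 4 fell while 0 rose by limma (0 higher at an unadjusted p under 0.05, and 5 lower and 0 higher with voom), with a median of -0.67. Cd74, the invariant chain, averaged 56.2 ± 5.6 FPKM in bKO and 89.0 ± 4.6 FPKM in control (log2 difference -0.66, limma adjusted p = 0.0024). H2-Ab1 and H2-Eb1, both chains of class II, fell by 0.86 and 0.75 (limma adjusted p = 0.0053 and 0.0028), and H2-Aa by 0.69 (limma adjusted p = 0.0063). These 4 calls held in all 14 other settings. H2-DMa, which helps load peptides, averaged 1.66 ± 0.71 FPKM in bKO and 3.01 ± 0.087 FPKM in control (limma adjusted p = 0.059).

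Other cathepsins work in the lysosomes of many islet cells, and their calls went in both directions. Of 12 genes for cathepsins and their inhibitor cystatin C, all tested, 2 fell and 1 rose by limma, with a median of -0.09. At an unadjusted p under 0.05, 5 were lower and 2 higher, and with voom 3 were lower and 1 higher. Over all genes 11.4% were called lower and 8.96% higher. Of the genes not called, Ctsb, Ctsf, Ctsh, Ctsl, Lgmn and Cst3 were lower in bKO with no overlap, and Ctsa higher. Over all genes such non-overlap held for 21.6% (lower) and 18.5% (higher). Ctso fell by 0.41 (limma adjusted p = 0.0040), a call that held in all 14 other settings at a smaller size under total scaling (-0.24). Ctsc, the dipeptidyl peptidase of leukocyte granules, averaged 1.11 ± 0.27 FPKM in bKO and 1.89 ± 0.21 FPKM in control, a call lost without bKO replicate 1 or 3 or any control library (limma adjusted p = 0.065 to 0.099). Ctsk rose by 0.51 and lost its call without any 1 of the 6 libraries (0.062 to 0.133). Cst3, cystatin C, averaged 336 ± 13 FPKM in bKO and 354 ± 1.1 FPKM in control (log2 difference -0.08, limma adjusted p = 0.24). Its sign turned with libraries scaled by their totals (0.10) and with quantile normalization (0.02).

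Lyve1 (ENSMUSG00000030787, chromosome 7, 110850607 to 110863239, minus strand) encodes a hyaluronan receptor. It was listed at 1.41, 1.15 and 1.30 FPKM in bKO, against 5.53, 6.38 and 5.65 FPKM in control. Spread within each group was narrow beside the gap, and the ratio of scaled reads was 0.220 (95% exact binomial interval 0.188 to 0.256) on 210 reads in bKO and 848 in control.

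The genes that usually accompany Lyve1 had few reads or went in both directions. Among 12 markers of resident macrophages, Timd4 and Cd209f had 0 reads in all 6 libraries, Cd163 had 6 reads in bKO and 4 in control, and only Gas6 and Stab1 passed the filter. Folr2, a folate receptor of Lyve1-positive macrophages, had 36 reads in bKO and 4 in control, and Mrc1, the mannose receptor, 70 in bKO and 29 in control. Gas6, which other cells make too, rose by 0.23 (limma adjusted p = 0.019), a call lost without any bKO library or control replicate 1 (limma adjusted p = 0.052 to 0.070). Stab1, a scavenger receptor, averaged 2.07 ± 0.24 FPKM in bKO and 1.48 ± 0.25 FPKM in control (limma adjusted p = 0.081). Siglec1, another macrophage receptor, had 26 reads in bKO and 45 in control, and F13a1, a transglutaminase of macrophages, 99 in bKO and 125 in control. For both the bKO libraries lay below the control libraries, and for Folr2, Mrc1, Gas6 and Stab1 above them. Of 6 lymphatic markers, Mmrn1 and Ccl21a had 0 reads and Pdpn 7 in bKO and 13 in control. Reln, the gene of reelin, had 113 reads in bKO and 217 in control with no overlap, a ratio of scaled reads of 0.462, and did not pass the filter. Prox1, which islet endocrine cells are known to express too, averaged 11.5 ± 0.57 FPKM in bKO and 10.6 ± 0.39 FPKM in control (limma adjusted p = 0.23), and Flt4, a growth factor receptor of lymphatic and some blood vessels, 2.33 ± 0.21 FPKM in bKO and 1.71 ± 0.28 FPKM in control (limma adjusted p = 0.081). Cd44, another hyaluronan receptor, moved the opposite way to Lyve1, to 8.88 ± 0.61 FPKM in bKO, against 4.66 ± 0.25 FPKM in control (log2 difference 0.80, limma adjusted p = 0.00063), and that call held in all 14 other settings.

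Cd79a (ENSMUSG00000003379, chromosome 7, 24897381 to 24902197, plus strand) encodes a signalling subunit of the B-cell receptor. It had 1.57, 0.719 and 1.52 FPKM in bKO, against 6.69, 6.81 and 4.02 FPKM in control. Both groups had 1 library well below the other 2, bKO replicate 2 and control replicate 3, yet the groups did not overlap. The ratio of scaled reads was 0.218 (95% exact binomial interval 0.174 to 0.271), on 104 reads in bKO and 423 in control.

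Several defining B-cell genes were at or near 0 beside these values. Cd79b, the partner without which CD79A is known not to form a receptor, had 5 reads in the bKO libraries together and 4 in control. Ms4a1, a B-cell surface protein, had 5 reads in bKO and 0 in control, and Pax5, the B-cell lineage factor, 0 in bKO and 1 in control. Some others had more reads and went in both directions. Ebf1, a B-lineage factor that stromal cells are known to express too, had 270 reads in bKO and 166 in control with no overlap, and Cd22, an inhibitory receptor, had 81 in bKO and 45 in control with overlap. Jchain, the joining chain of antibodies, had 8 in bKO and 28 in control, with overlap. Ighm, the constant region of IgM, averaged 0.564 ± 0.19 FPKM in bKO and 1.09 ± 0.19 FPKM in control (limma adjusted p = 0.061). Of 15 B-cell genes other than Cd79a only Ighm and Igkc passed the filter. Igkc, the kappa light chain constant region, fell by 1.19 (limma adjusted p = 0.040) on 14 reads in bKO and 68 in control, a call lost without any bKO library or control replicate 1 or 2 (limma adjusted p = 0.051 to 0.118). The summed level of the list was 2.12 to 2.62 FPKM in bKO and 3.90 to 6.52 FPKM in control, and in each control library Cd79a exceeded the level of Cd79b, Ms4a1 and Pax5. No exon of Cd79a or of Lyve1 overlaps another gene in GENCODE vM21.

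Few macrophage genes outside the 10 members were called. Of 24 such genes, 17 passed the filter, and 2 fell while 0 rose by limma, with 4 lower and 0 higher at an unadjusted p under 0.05 and 3 lower and 0 higher with voom. This 2 of 17 stands beside 11.4% of all genes called lower. The median of the 17 was -0.17. Mpeg1, the pore-forming protein of macrophages, averaged 3.55 ± 0.21 FPKM in bKO and 4.79 ± 0.31 FPKM in control (log2 difference -0.35, limma adjusted p = 0.014), a call lost without bKO replicate 1 or control replicate 1 (limma adjusted p = 0.053 and 0.052) and with libraries scaled by their totals (0.059). Tyrobp, the signalling adaptor DAP12, averaged 3.41 ± 0.48 FPKM in bKO and 5.28 ± 1.1 FPKM in control (-0.50, limma adjusted p = 0.045), and lost its call without any bKO library or control replicate 1 or 2 (0.060 to 0.122), with total scaling (0.083) and with voom (0.080). Cybb, a subunit of the phagocyte oxidase, averaged 0.879 ± 0.25 FPKM in bKO and 1.45 ± 0.19 FPKM in control (limma adjusted p = 0.069).

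**Figure D3:**
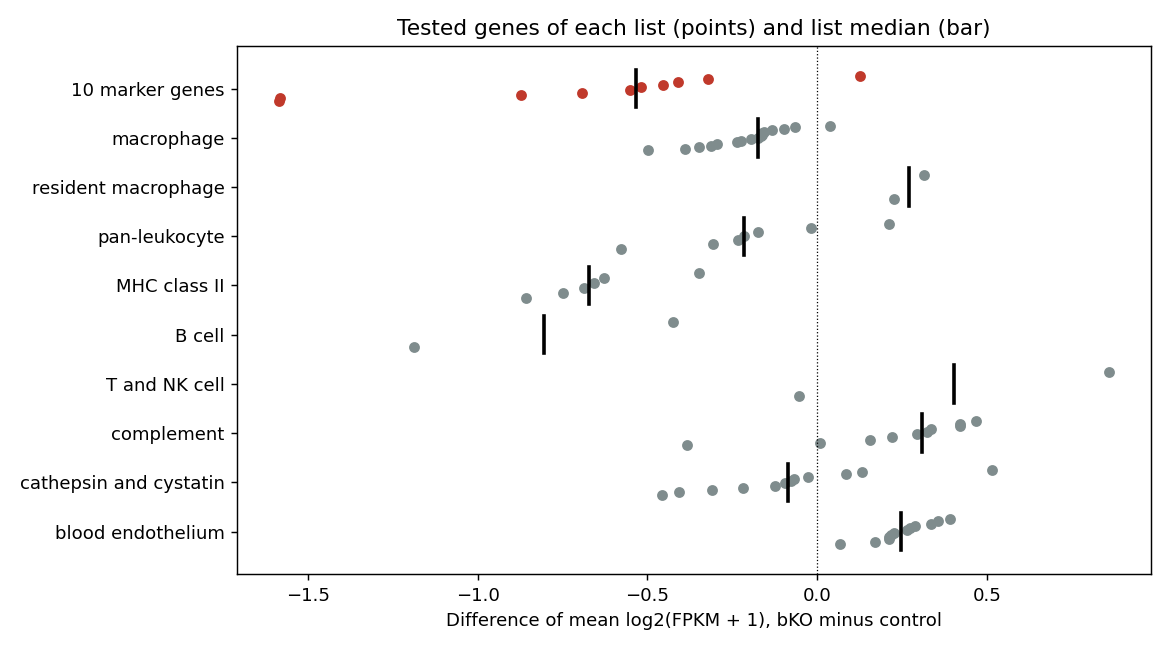
Difference of the mean log2(FPKM + 1), bKO minus control, for each tested gene (points) of the 10 markers and of 9 other lists, with the list median as a bar. The 10 markers and the MHC class II genes have medians of -0.53 and -0.67, the further macrophage genes -0.17 and the blood endothelial genes 0.25.

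Genes shared by all leukocytes were not called, but their summed level was lower in bKO. Of 8 pan-leukocyte genes 7 were tested, and 0 rose and 0 fell by limma (1 lower and 0 higher at an unadjusted p under 0.05, and 0 and 0 with voom), with a median of -0.21. Ptprc, the gene of CD45, had 282 reads in bKO and 337 in control with no overlap, and did not pass the filter. Its ratio of scaled reads was 0.743 (95% exact binomial interval 0.632 to 0.872). Coro1a was also lower in bKO with no overlap (limma adjusted p = 0.075), while Rac2 was higher with no overlap (limma adjusted p = 0.22). The summed level of the list was 6.82 to 7.93 FPKM in bKO and 8.92 to 10.4 FPKM in control. Of 11 T and NK cell genes 2 passed the filter and 1 rose, Thy1, which nerve and stromal cells share, by 0.86 (limma adjusted p = 0.0069), while Cd3e had 7 reads in bKO and 0 in control. The T-cell kinase Lck, on 68 reads in bKO and 67 in control, had a log2 difference of -0.05 (limma adjusted p = 0.86), which turned positive without bKO replicate 3 (0.091) or control replicate 3 (0.0023). Of 10 monocyte and neutrophil genes 1 was tested, and 0 rose and 0 fell by limma, at an unadjusted p under 0.05 and with voom. Plac8, the gene tested, averaged 0.408 ± 0.26 FPKM in bKO and 0.479 ± 0.18 FPKM in control (limma adjusted p = 0.78), and Ly6g, Cxcr2 and Retnlg had 0 reads. Among 11 macrophage cytokine and effector genes 5 were tested, and again 0 rose and 0 fell by each of these measures. Il1b, the gene of interleukin-1 beta, averaged 1.02 ± 0.43 FPKM in bKO and 1.19 ± 0.27 FPKM in control (limma adjusted p = 0.65). Of 8 dendritic cell genes 1 was tested, with 0 calls by limma, 0 at an unadjusted p under 0.05 and 1 higher with voom, Zbtb46.

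Among vessel genes the calls were higher in bKO. The share of all genes called higher, to be set beside each list here, was 8.96%. Of 12 blood endothelial genes, all tested, 7 rose and 0 fell by limma (10 higher and 0 lower at an unadjusted p under 0.05, and 9 and 0 with voom), with a median of 0.25 and a summed level of 227 to 234 FPKM in bKO and 177 to 204 FPKM in control. Eng and Ptprb rose by 0.39 and 0.29 (limma adjusted p = 0.0029 and 0.0083), and their calls held in all 14 other settings, with Ptprb at 0.44 under total scaling. Cdh5, Plvap and Tek each lost their call without 5 of the 6 libraries taken singly (limma adjusted p = 0.051 to 0.108), Egfl7 without bKO replicate 1 or control replicate 1 (0.057 and 0.055), and Flt1 without bKO replicate 3 (0.052). Emcn averaged 8.66 ± 0.64 FPKM in bKO and 8.24 ± 0.90 FPKM in control (limma adjusted p = 0.62), and Tie1, Pecam1, Kdr and Esam were not called either. Of 5 red cell genes 3 rose and 0 fell by limma (4 and 0 at an unadjusted p under 0.05, and 3 and 0 with voom). Their calls were each lost without at least 4 of the 6 libraries taken singly (limma adjusted p up to 0.129), and near-identical globin copies make their counts uncertain. Of 8 mesenchymal genes tested 1 rose, Pdgfrb by 0.35, and 0 fell (0 lower at an unadjusted p under 0.05 and with voom). Rgs5, a pericyte gene, had a difference of -0.10 (limma adjusted p = 0.20) that turned to 0.07 with total scaling. Acinar genes come from exocrine tissue, and of 7 acinar genes tested 0 rose and 0 fell by limma (0 at an unadjusted p under 0.05, and 1 higher with voom). The part of these lists in the values of the 10 genes was not tested.

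Libraries of the same group also differed in these genes, a comparison the choice of members did not use. As deviations from the group means over the 6 libraries, Ctss moved with the mean of the C1q chains (Pearson r = 0.91), and so did C1qb with the other 2 chains (0.91), C1qa (0.83), C1qc (0.74) and Lyz2 (0.69). Outside the members, r was 0.99 for Cd74, 0.98 for H2-Eb1, 0.93 for H2-Aa and 0.72 for H2-Ab1. It was 0.51 for Csf1 and -0.61 for Cd44. The other members did not move with the C1q chains: r was 0.23 for Cd68, -0.08 for Adgre1, -0.11 for Cd79a, -0.23 for Lyve1 and -0.43 for Csf1r. In bKO replicate 3, 7 of the 10 genes had their lowest bKO value, the exceptions being Csf1r, Lyve1 and Cd79a, which were lowest in bKO replicate 2. These correlations are descriptions, since the genes share the libraries and their scaling, only 6 libraries stand behind each, and counting error is wide for the genes with few reads.

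**Figure D4:**
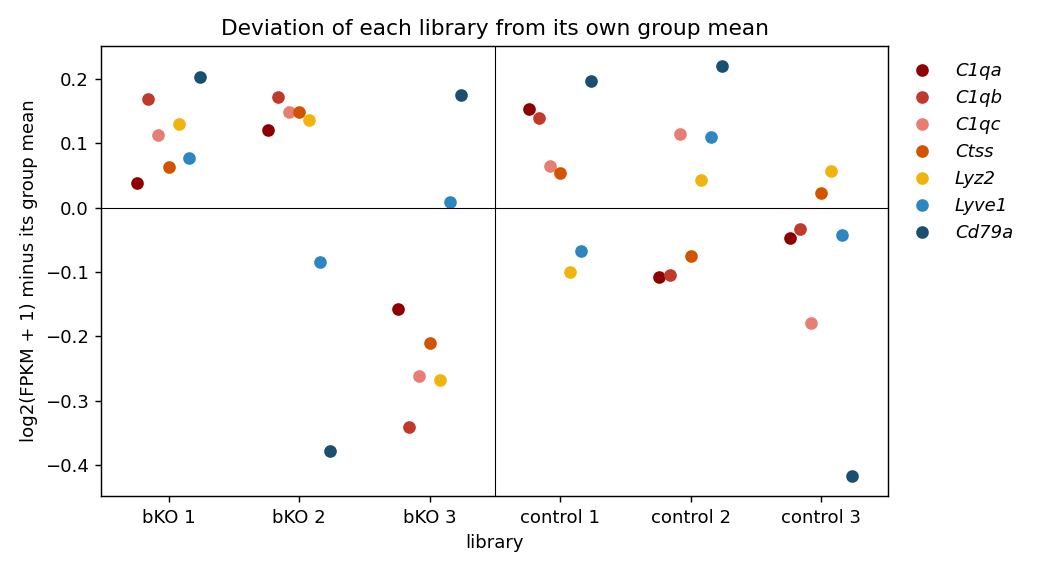
Deviation of log2(FPKM + 1) from the mean of its own group for 7 of the genes in each library, bKO to the left and control to the right (n = 3 each). C1qa, C1qb, C1qc, Ctss and Lyz2 all lie below 0 in bKO replicate 3, where Lyve1 and Cd79a lie above it.

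Ordered by mean level per length, bKO islets had C1qa, Ctss, C1qb, Lyz2, C1qc, Cd68, Csf1r, Lyve1, Cd79a and Adgre1, and control islets C1qa, Ctss, C1qb, Lyz2, C1qc, Lyve1, Cd79a, Csf1r, Cd68 and Adgre1. The top 5 kept their order. Below them Lyve1 and Cd79a averaged 1.29 ± 0.13 and 1.27 ± 0.48 FPKM in bKO, and 5.85 ± 0.46 and 5.84 ± 1.6 FPKM in control, so these neighbours did not differ beyond their spread in either group. In bKO neither did Cd68 (2.06 ± 0.41) and Csf1r (1.60 ± 0.42), Csf1r and Lyve1, or Cd79a and Adgre1 (1.16 ± 0.077). In control neither did C1qc (6.78 ± 0.82) and Lyve1, or Cd68 (1.81 ± 0.44) and Adgre1 (1.71 ± 0.34).

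Over the 6 libraries, the genes most like the mean standardised level of the 10 members were R3hdm4, Plut, Eif1ax, Tmem150c, Hip1r and Cpm, with Pearson r of 0.996 to 0.999. Plut, an antisense RNA in the table, averaged 9.28 ± 1.7 FPKM in bKO and 20.1 ± 0.59 FPKM in control, and Cpm, carboxypeptidase M, 1.63 ± 0.34 FPKM in bKO and 4.08 ± 0.25 FPKM in control. Of the 15707 other tested genes, 1241 (7.90%) had r of at least 0.9, so an r above that lower limit was common. All 6 had lower values in bKO with no overlap, and for R3hdm4 and Eif1ax the limma adjusted p was 0.065 and 0.056. The members were picked on this contrast, so genes ranked by likeness to them over both groups are lower in bKO by selection. No conclusion is drawn from these values. None of the 6 is on a macrophage or leukocyte list used here.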

How the data were processed

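RNA of 3 bKO and 3 control islet samples was sequenced. Tools listed without roles in the submitters' processing notes were CASAVA, HISAT2 (2.0.5), featureCounts (1.5.0-p3) and DESeq2 (1.20.0), and the build was GRCm38. The deposited table holds FPKM, which the authors scaled per kilobase and library. Multiplied by gene length and 1 factor per library, all values above 0 came within 0.01 of whole reads (100%), so reads were recovered. These factors matched size factors computed as medians of ratios (0.923 to 1.10). The size factors were 1.04 to 1.10 in bKO and 0.923 to 0.988 in control, while the recovered totals of the groups overlapped. Intervals and limits (3 reads) cover counting error only. No source used here states the strand setting or the treatment of multi-mapped reads. 0 columns of other samples were present.

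limma 3.58.1 (R 4.3.3) with a mean-variance trend was fitted to log2(FPKM + 1) of genes with at least 0.5 FPKM in at least 3 libraries, with Benjamini-Hochberg adjustment over all 15717 genes (threshold 0.05). Fold changes on this scale understate changes of low genes. Intervals came from scipy 1.17.1, tables from pandas 2.3.3 and figures from matplotlib 3.10.9. Libraries of a group differed beyond sampling noise (chi-square per degree of freedom 3.87 to 6.05).

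The 10 members and all lists were chosen with earlier results of these data known. The text names the members, Ythdc1, fixed partner genes, up to 3 genes per list with the smallest adjusted p, defining markers with few or no reads, and the 6 genes most like the members. Some further list genes were named after their values were seen, because few were called or had reads. Alternatives were total scaling, quantile normalization, pseudocounts of 0.1 and 0.5, no filter, a filter of 1 FPKM, voom on recovered reads, the replicate number as a block, and leaving out each library. No labels give a batch. Protein sequences were not used here. Values of some list genes are not reported here.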

Additional observations from a re-analysis of the deposited data

How the results depend on the processing

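The 9 lower members kept a negative difference and Cd68 a positive one in all 14 other settings. Their median, -0.53, was -0.37 with libraries scaled by their totals, where all genes had a median of 0.13 in place of -0.01, -0.63 with a pseudocount of 0.1 and -0.64 with voom, and -0.61 to -0.47 when single libraries were left out. Lyve1 and Cd79a ran from -2.18 to -1.46 and from -2.22 to -1.40. The 3192 changed genes became 4421 with total scaling, 4358 with voom, 2077 with the replicate block and 1904 to 2783 without single libraries. Genes higher in bKO were 44.1% of the calls, and 83.3% with total scaling. The 2 macrophage genes outside the members that were lower became 3 with quantile normalization, 3 with voom, 0 with total scaling, 1 with no filter, 1 with the replicate block and 0 to 2 without single libraries. The 1 lower B-cell gene became 2 with quantile normalization, 2 with voom, 0 with no filter and 0 to 1 without single libraries. Signs reversed for Cst3 (0.10), Lamp1 (0.15) and Rgs5 (0.068) with total scaling, and for Cst3 (0.022), Lamp1 (0.14) and Il34 (-0.058) with quantile normalization. Without single libraries Lck ran from -0.17 to 0.091 and Plac8 from -0.22 to 0.049. The cause of these changes was not tested. Same-numbered libraries did not deviate together over all genes tested (r = -0.073 to -0.014). That check cannot show that the replicate numbers carry no pairing for single genes. With the replicate block the SE was 0.063 in place of 0.131 for C1qc, and 0.094 in place of 0.079 for Lyve1. Depth limits Adgre1, Cd68, Cd79a and Lyve1 most. These had 104 to 275 reads per group, apart from Cd79a (423) and Lyve1 (848) in control.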
